A study of Mus musculus with 17 samples.

Results

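Aminoacyl-tRNA synthetases are the enzymes that join each amino acid to its transfer RNA (tRNA). The 36 genes described here come from a named list and were not picked by their values, though earlier results of these data were known. Of these, 20 encode enzymes of the cytosol and 16 encode enzymes of the mitochondrion. All 36 were present among the 18554 gene symbols of the deposited table, and all 36 were among the 9898 genes tested. They were followed in poly(A) RNA of B cells from C57BL/6 mice, which the sample titles call old, in 17 libraries of 5 groups. The wild-type mice (WT, n = 3) carried neither lesion. The Sf3b1 MT mice (n = 3) carried a mutation of the splicing factor gene Sf3b1, and the Atm MT mice (n = 6) a deletion of Atm, the gene of a kinase that signals DNA breaks. The double mutant (DM, n = 3) carried both lesions without a leukaemia label. The DM-CLL group (n = 2, replicates 4 and 5) carried both lesions and was labelled as chronic lymphocytic leukaemia (CLL). The series title restricts both lesions to B cells. The driver of that restriction, the exact ages and whether each library is a separate mouse are not given in the sources used here, so p-values measure the spread between libraries, which may be technical.

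A synthetase activates its amino acid with ATP and passes it to the matching tRNA, which then delivers it to the ribosome. The enzymes fall into a class I and a class II with unrelated active sites. In mammalian cytosol several of them sit with scaffold proteins in a multisynthetase complex, while mitochondria use a separate set encoded in the nucleus. Gars and Kars each encode both the cytosolic and the mitochondrial enzyme. Many cytosolic synthetase genes are known targets of the transcription factor ATF4, which acts when amino acids run short, and several are also induced by Myc, which drives the growth of activated lymphocytes.

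The promoters of some members carry the short letters that such factors are known to read. They are shown here because the genes concerned include Tars, the member with the clearest change, so the choice followed the results. The letters searched, on both strands, were TGATGNAA, the form bound by ATF4 with C/EBP proteins, and CACGTG, the E-box bound by Myc and related proteins. The windows run from 250 bases before to 50 bases after the start in RefSeq, build GRCm38.p6, and 27 of the 36 members matched the table, 26 by symbol and Mars by a synonym. TGATGNAA was found in 5 of the 27 (Aars, Gars, Iars, Tars and Yars; 18.5%) and in 3.97% of all 32851 windows. CACGTG was found in 5 of the 27 (Aars, Ears2, Farsb, Iars and Tars; 18.5%) and in 7.15% of all windows. A match is a description of the letters and not a measured binding site. The 5 windows with TGATGNAA follow, 5′ to 3′, with both kinds of letters in capitals. They lie at chr15:11399609-11399908, minus strand (Tars), chr6:55037751-55038050, plus strand (Gars), chr13:49681880-49682179, plus strand (Iars), chr8:111033592-111033891, plus strand (Aars) and chr4:129189653-129189952, plus strand (Yars).
Tars: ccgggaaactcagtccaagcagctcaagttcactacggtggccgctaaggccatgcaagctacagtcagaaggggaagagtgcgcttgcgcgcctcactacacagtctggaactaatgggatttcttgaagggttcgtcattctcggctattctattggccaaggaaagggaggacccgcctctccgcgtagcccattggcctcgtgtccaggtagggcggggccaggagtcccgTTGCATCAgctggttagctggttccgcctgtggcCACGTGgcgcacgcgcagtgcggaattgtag
Gars: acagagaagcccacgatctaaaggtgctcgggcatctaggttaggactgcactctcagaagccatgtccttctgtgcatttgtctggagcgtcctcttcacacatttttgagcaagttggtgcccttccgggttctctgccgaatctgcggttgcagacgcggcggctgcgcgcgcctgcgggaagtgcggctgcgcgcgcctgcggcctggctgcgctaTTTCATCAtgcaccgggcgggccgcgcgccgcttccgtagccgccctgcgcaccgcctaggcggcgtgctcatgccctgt
Iars: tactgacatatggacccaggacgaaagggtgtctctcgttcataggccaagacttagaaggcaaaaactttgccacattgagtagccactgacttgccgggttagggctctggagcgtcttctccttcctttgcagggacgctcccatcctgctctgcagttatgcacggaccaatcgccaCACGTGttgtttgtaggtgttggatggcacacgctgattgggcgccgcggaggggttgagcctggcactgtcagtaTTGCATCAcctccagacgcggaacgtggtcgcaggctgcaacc
Aars: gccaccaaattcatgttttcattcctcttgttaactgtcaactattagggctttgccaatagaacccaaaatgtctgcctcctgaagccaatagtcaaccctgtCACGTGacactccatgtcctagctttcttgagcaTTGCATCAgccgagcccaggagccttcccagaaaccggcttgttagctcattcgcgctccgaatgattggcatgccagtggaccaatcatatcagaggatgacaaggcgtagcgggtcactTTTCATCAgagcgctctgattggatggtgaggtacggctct
Yars: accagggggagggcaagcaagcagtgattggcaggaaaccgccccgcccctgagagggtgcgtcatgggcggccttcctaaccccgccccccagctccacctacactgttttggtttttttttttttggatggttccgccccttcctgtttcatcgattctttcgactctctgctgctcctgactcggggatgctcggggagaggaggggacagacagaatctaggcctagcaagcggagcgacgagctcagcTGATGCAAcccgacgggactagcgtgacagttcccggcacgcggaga
The TGATGNAA letters began 15 bases before the start in Tars, 30 bases before it in Gars and 112 bases before it in Aars. Aars held a second copy after the start, and the copies of Iars and Yars also lay after the start. Aars, Iars and Tars held both kinds of letters. The windows of Rars2, Aars2 and Qars, which like Tars were called after median-ratio scaling (below), held neither kind. Vars, also called there, had no matched window. Of the genes with TGATGNAA, Aars and Yars passed in no comparison, and Gars and Iars lost their calls after that scaling. The part of these letters in the levels was not tested.

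Values are in TPM, the length-corrected share of transcripts per library, so levels can be compared between genes. Ratios are differences of log2(TPM + 1), which understates the change of low genes, and a gene is said to have risen or fallen where limma's test across all 9898 genes gave an adjusted p below 0.05. The listed genes held 43.1% to 59.7% of each library's TPM, so much of each library lay outside the table. The read depth is unknown, and no counting error could be given for single values. The targeted genes check these labels little: a mutation need not change the level of its gene, and which part of Atm is deleted is not given in the sources used here. Sf3b1 measured 106, 113 and 96.1 TPM in WT, 88.8, 50.2 and 70.6 in Sf3b1 MT and 73.9, 39.8 and 58.7 in DM, all below WT, but 140.3 and 138 in DM-CLL, both above WT. In Atm MT, without a mutation of Sf3b1, it measured 112 to 191 TPM. Atm measured 7.57, 8.87 and 6.48 TPM in WT and 4.24 to 15.6 in Atm MT, which overlap. Xist, used below as a covariate, measured 38.6, 47.05 and 0.08 TPM in WT and 0.02, 0.03 and 0.03 in Sf3b1 MT. It measured 29.1, 37.75, 0.04, 52.8, 0.02 and 0.06 TPM in Atm MT replicates 1 to 6. In DM it measured 0.02, 27.5 and 0.01 TPM, and in DM-CLL 9.54 and 116. Xist was thus unevenly spread over the groups. All 10 B-cell markers examined were present in every library, with Cd79a, a subunit of the B-cell receptor, at 866 to 1988 TPM. Markers of other cells were also present, and DM-CLL replicate 4 stood apart in them. Its 7 erythroid genes summed to 34834 TPM, against 37.4 in DM-CLL replicate 5 and 15.4 to 2538 in the 15 other libraries. Its T-cell markers summed to 227 TPM, against 13.9 to 41.0 in the other 16 libraries. In bulk RNA, a change in the share of cells of a type and a change in RNA per cell cannot be told apart. The reference level of whole libraries also differed. The factor that aligns the median gene of a library was 0.769 to 0.945 in DM and 1.15 to 1.30 in DM-CLL, against 0.849 to 1.17 in the other libraries.

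The cytosolic members were abundant in these B cells and the mitochondrial ones, with 1 exception, were low. Leaving out Vars, which is described below, the mean over all 17 libraries ran from 13.5 TPM for Aars, the alanine enzyme, to 54.1 TPM for Kars, the lysine enzyme, in the cytosolic set. Nars (asparagine) at 48.1 TPM and Dars (aspartate) at 43.01 TPM followed Kars. Without Lars2, the mitochondrial means ran from 2.71 TPM for Wars2 (tryptophan) to 14.2 TPM for Tars2 (threonine). Of 15 pairs of a cytosolic gene and its mitochondrial counterpart, the cytosolic gene was higher in all 17 libraries in 13 pairs. The 2 exceptions were Lars2, which lay above Lars in every library, and Vars, which lay above Vars2 in 14 of 17. Nars exceeded Nars2 by 11.4-fold to 20.2-fold, while Cars exceeded Cars2 by only 1.15-fold to 1.84-fold. Kars also varied least. Its values were 60.9, 51.7 and 54.4 TPM in WT, 58.1, 64.7 and 49.9 in Sf3b1 MT and 41.6 to 57.9 in Atm MT (median 51.3), and 49.6, 57.5 and 50.6 TPM in DM and 64.9 and 53.6 in DM-CLL, a coefficient of variation of 10.7% over the 15 libraries without DM-CLL. Nars measured 49.4, 56.9 and 45.6 TPM in WT, 44.2, 37.5 and 47.5 in Sf3b1 MT and 38.98 to 51.2 in Atm MT (median 47.6), and 39.5, 42.1 and 51.1 TPM in DM and 63.7 and 57.1 in DM-CLL. All group ranges of Kars overlapped, and those of Nars overlapped except that both DM-CLL libraries lay above all others.

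**Figure D1:**
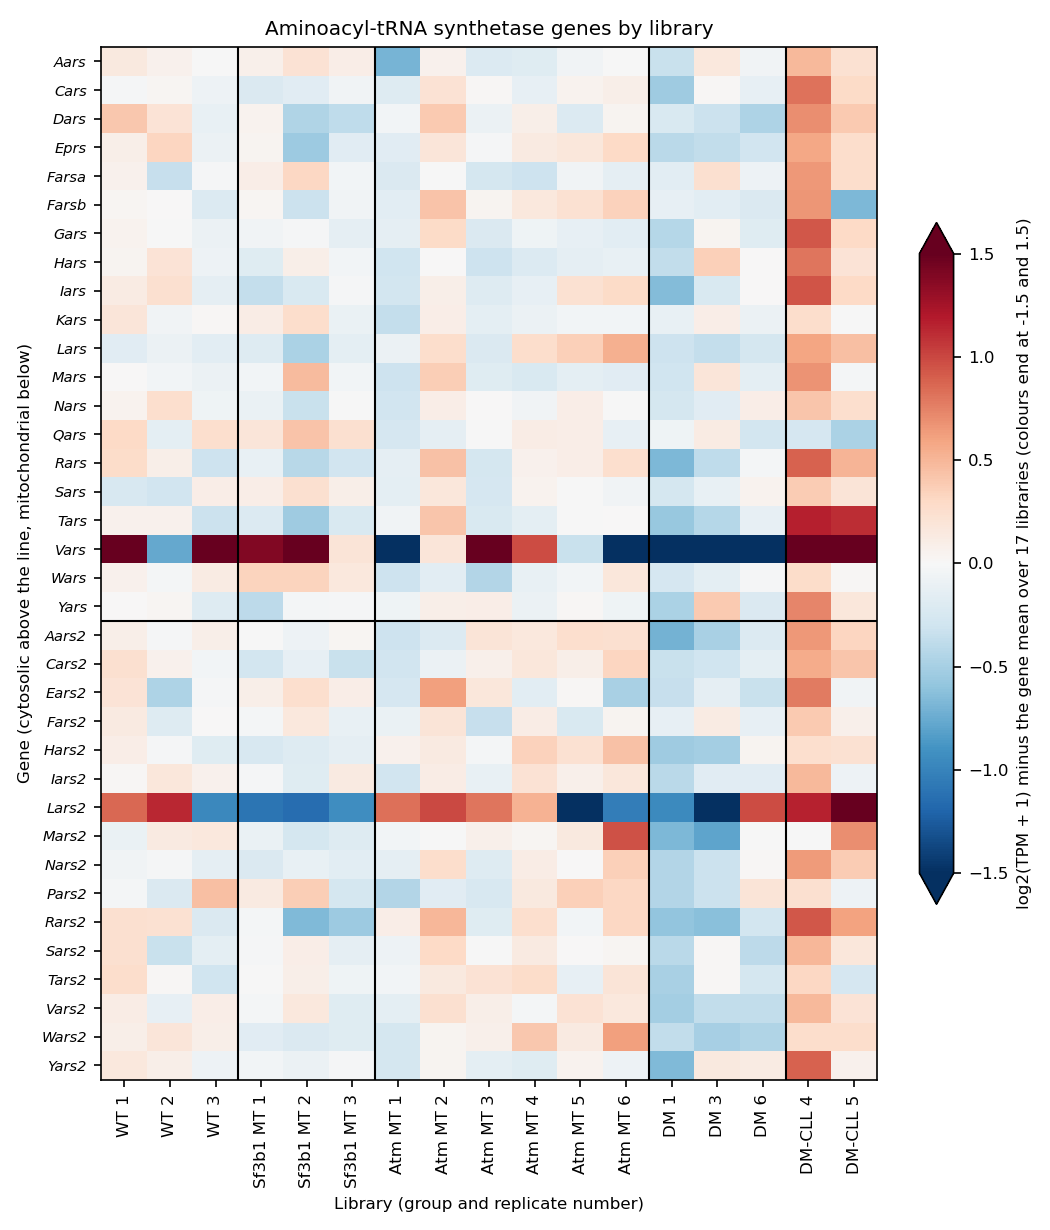
Heat map of the 36 genes (rows, cytosolic above the line and mitochondrial below) in the 17 libraries (columns). Colour gives log2(TPM + 1) minus the gene's mean over all libraries, red for higher and blue for lower, with colours ending at -1.5 and 1.5. The DM columns are mostly blue and the DM-CLL columns mostly red, more so for replicate 4 than for replicate 5, while Lars2 and Vars change from library to library within groups.

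Lars2, the mitochondrial leucine enzyme (chromosome 9, 123366927 to 123462666, GRCm38), was the highest member in every library and split the libraries across genotypes. It measured 449, 539 and 125 TPM in WT and 115, 111 and 128 in Sf3b1 MT. In Atm MT it measured 438, 489.8, 430.0, 352, 83.6 and 119 TPM in replicates 1 to 6, with 126, 77.7 and 484 TPM in DM and 548 and 1028 in DM-CLL. The values fell into 8 libraries of 77.7 to 128 TPM and 9 of 352 to 1028 TPM with none between. Both levels were present in WT, Atm MT and DM, so that the split did not follow the genotype. It went largely with the level of Xist, whose values are given above. Exceptions were Atm MT replicate 3 and DM replicate 6 (Lars2 high, Xist 0.04 and 0.01 TPM) and DM replicate 3 (Lars2 low, Xist 27.5 TPM). The part of Xist in the split was not tested. The low level held all 3 Sf3b1 MT libraries, and the high level held Atm MT replicates 1 to 4 and both DM-CLL libraries. Lars2 did not pass in any comparison, with a log2 ratio of 2.15 ± 0.81 (SE, limma adjusted p = 0.0535) in DM-CLL against DM. The cytosolic gene Lars did not follow the split, with 15 to 32.3 TPM over all libraries.

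Vars, the cytosolic valine enzyme (chromosome 17, 35000987 to 35016322), was the other unstable member. It measured 71.97, 9.66 and 59.05 TPM in WT, 46.5, 69.2 and 19.6 in Sf3b1 MT and 4.36, 19.5, 64.6, 34.6, 13.3 and 0 in Atm MT replicates 1 to 6. In DM it measured 1.66, 0 and 4.04 TPM, and in DM-CLL 204 and 72. It is listed at 0 in Atm MT replicate 6 and DM replicate 3, although the enzyme is needed for all protein synthesis, so no mean is given. Every DM library lay below every WT and Sf3b1 MT library, while Atm MT spanned both. The difference of DM from WT did not pass (log2 -3.92 ± 1.19 SE, limma adjusted p = 0.0875), nor did those against Sf3b1 MT and Atm MT. The rise in DM-CLL against DM passed with a log2 ratio of 5.69 ± 1.31 (SE, limma adjusted p = 0.00457). That value depends on the pseudocount (7.07 with 0.1 in place of 1), is no measure of a fold, and missed the threshold without DM-CLL replicate 4 (adjusted p = 0.0594). Vars is the largest single term of the cytosolic sum in DM-CLL replicate 4, so group summaries below are also given without it.

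**Figure D2:**
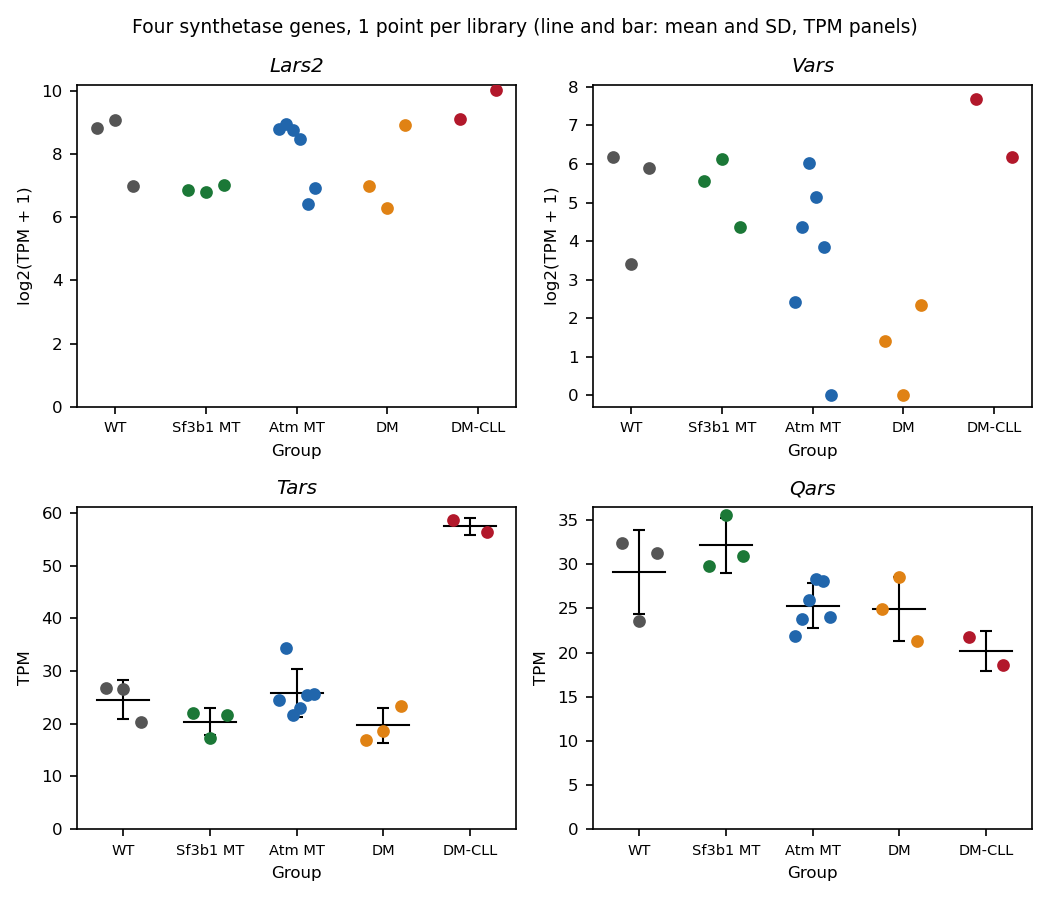
Values of 4 members by group, 1 point per library. Lars2 and Vars are drawn as log2(TPM + 1), and Tars and Qars as TPM with the group mean and SD. Lars2 falls into a low and a high level that cross the groups, Vars is near 0 in DM, both Tars points of DM-CLL lie above all others, and the Qars points of DM-CLL lie at the low end.

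The first comparisons asked what the Sf3b1 mutation alone and the Atm deletion alone did to the synthetase genes. In Sf3b1 MT against WT none of the 36 passed limma's test, 2 had an unadjusted p below 0.05, and 0.0707% of all tested genes passed, all lower (0.0303% after median-ratio scaling). The median log2 ratio of the members was -0.09, beside -0.11 for all tested genes. The smallest p among members belonged to Dars (log2 -0.43 ± 0.18 SE, limma adjusted p = 0.445) and Rars2 (log2 -0.50 ± 0.22 SE, limma adjusted p = 0.446). Wars, the tryptophan enzyme, was higher in every Sf3b1 MT library than in any WT library (22.4, 20.9 and 23.3 TPM in WT, 27.1, 27.1 and 23.9 in Sf3b1 MT). Cars2 and Wars2 were lower in every Sf3b1 MT library than in any WT library. That is 1 member higher without overlap, against 2.4% of all genes, and 2 lower, against 17.1%. Xist was at 0.02 to 0.03 TPM in all 3 Sf3b1 MT libraries, and with it as a covariate no gene passed.

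In Atm MT against WT none of the 36 passed, none had an unadjusted p below 0.05 in limma's test, and 0.647% of all genes passed. The members' median was -0.02, beside -0.05 for all genes. No member had groups without overlap, against 1.62% of all genes higher and 3.48% lower. Lars had the largest ratio after Vars (log2 0.32 ± 0.16 SE, limma adjusted p = 0.464). Leaving out Atm MT replicates 1 to 4, which stood apart in earlier results of these data, also called no member.

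The question for the double mutant was whether both lesions together moved the genes that neither moved alone. As deposited, most members had lower values in DM than in WT, as did the median gene, and after median-ratio scaling most had higher values. Against WT, 34 of 36 ratios were below 0 with a median of -0.20, beside -0.25 for all genes, and 15 of 36 were below 0 after median-ratio scaling. None passed limma's test (8 at an unadjusted p below 0.05), against 2.23% of all genes, 2.08% lower and 0.152% higher. Over all genes the split of higher to lower calls was 15 to 206 as deposited and 15 to 12 after scaling. In DM, 10 members were lower than in any WT library without overlap, against 28.1% of all genes, and none was higher, against 2.06%. They were Dars, Eprs, Lars, Vars, Aars2, Cars2, Iars2, Rars2, Vars2 and Wars2, of which 6 are mitochondrial. Eprs, the enzyme for both glutamate and proline, illustrates the size, at 25.4, 29.8 and 22.3 TPM in WT and 17.6, 18.1 and 19.2 in DM.

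Against Atm MT, 2 mitochondrial members fell in DM, against 6.05% of all genes called, 4.52% lower and 1.54% higher. Vars2, the mitochondrial valine enzyme, measured 5.36, 4.39 and 5.28 TPM in WT, 4.77, 5.56 and 4.18 in Sf3b1 MT and 4.29 to 5.93 in Atm MT (median 5.38). Vars2 in the double mutants measured 3.14, 3.55 and 3.53 TPM in DM and 7.26 and 5.75 in DM-CLL. Vars2 fell in DM against Atm MT with a log2 ratio of -0.50 ± 0.14 (SE, limma adjusted p = 0.0461). All DM libraries lay below all 12 libraries of the other genotypes without leukaemia for this gene. Wars2, the mitochondrial tryptophan enzyme, measured 2.85, 3.11 and 2.87 TPM in WT, 2.22, 2.12 and 2.20 in Sf3b1 MT and 2.01 to 4.55 in Atm MT (median 2.90). Wars2 in the double mutants measured 1.81, 1.56 and 1.66 TPM in DM and 3.37 and 3.34 in DM-CLL. Wars2 fell in DM against Atm MT with a log2 ratio of -0.61 ± 0.17 (SE, limma adjusted p = 0.048). The DM libraries again lay below all 12. Rars2, Hars2 and Mars2 came next, with log2 ratios of -0.65 ± 0.19 (SE, limma adjusted p = 0.0511), -0.53 ± 0.16 (SE, limma adjusted p = 0.0548) and -0.68 ± 0.22 (SE, limma adjusted p = 0.0714), and did not pass. Both adjusted p-values lay just under 0.05, and both calls were lost in 7 of 10 alternatives, median-ratio scaling among them. Of 15 omissions of a single library, Vars2 kept its call in 2 (adjusted p 0.0400 to 0.190 over all 15) and Wars2 in 1 (0.0345 to 0.210). The median of the members was -0.30 as deposited and -0.07 after scaling, beside -0.21 and 0.01 for all genes, whose split of higher to lower calls was 152 to 447 as deposited and 275 to 111 (2.78% and 1.12%) after scaling. Without overlap, 6 members were lower, against 9.5% of all genes.

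Against Sf3b1 MT none of the 36 passed limma's test (5 at an unadjusted p below 0.05), against 0.121% of all genes (0.0404% higher and 0.0808% lower; 0.101% and 0.0606% after scaling), and the median was -0.12, beside -0.11. The 8 members Qars, Sars, Vars, Wars, Aars2, Ears2, Vars2 and Wars2 were lower in DM without overlap, against 14.7% of all genes, and none was higher, against 3.88%. The interaction of the lesions, which asks whether the double mutant differs from the sum of the single ones, called no member and no gene in limma's test. At an unadjusted p below 0.05 it held 1 member, Vars2 (log2 -0.46 ± 0.21 SE, limma adjusted p = 0.892), and 546 of all 9898 genes.

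Most calls came with leukaemia. In DM-CLL against DM, 18 of 36 members rose and none fell in limma's test, beside 29.2% of all tested genes that rose and 1.97% that fell. Of the 18, 9 are cytosolic (Cars, Dars, Eprs, Gars, Iars, Lars, Rars, Tars and Vars) and 9 mitochondrial (Aars2, Cars2, Hars2, Mars2, Nars2, Rars2, Sars2, Vars2 and Wars2). The median log2 ratio of the members was 0.62 (0.61 without Vars), beside 0.43 for all genes. In all, 35 of 36 ratios were above 0 as deposited, and 22 of 36 after median-ratio scaling, which took the median of all genes from 0.43 to -0.03 and that of the members to 0.18. After scaling, the calls over all genes went from 2889 higher and 195 lower to 873 higher and 749 lower, and those among members to 4 higher and 1 lower. The other 14 of the 18 calls were thus not kept. For 25 members the DM-CLL libraries lay above all DM libraries, against 47.3% of all genes, and for none below them, against 6.05%. For 13 members they lay above all 15 other libraries, against 15.1%, and for none below all of them, against 2.13%. Plasma-cell markers moved in the same comparison: of 8 tested, 4 fell (Tnfrsf17, Sdc1, Slamf7 and Xbp1) and 1 rose, with a median of -1.30, and after scaling 5 fell and none rose, with a median of -1.80. Their summed level was 130 and 162 TPM in DM-CLL and 287 to 312 in DM, without overlap, and their part in the synthetase ratios was not tested. The DM libraries are those of the preceding paragraphs, so their low values enter these ratios too.

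**Figure D3:**
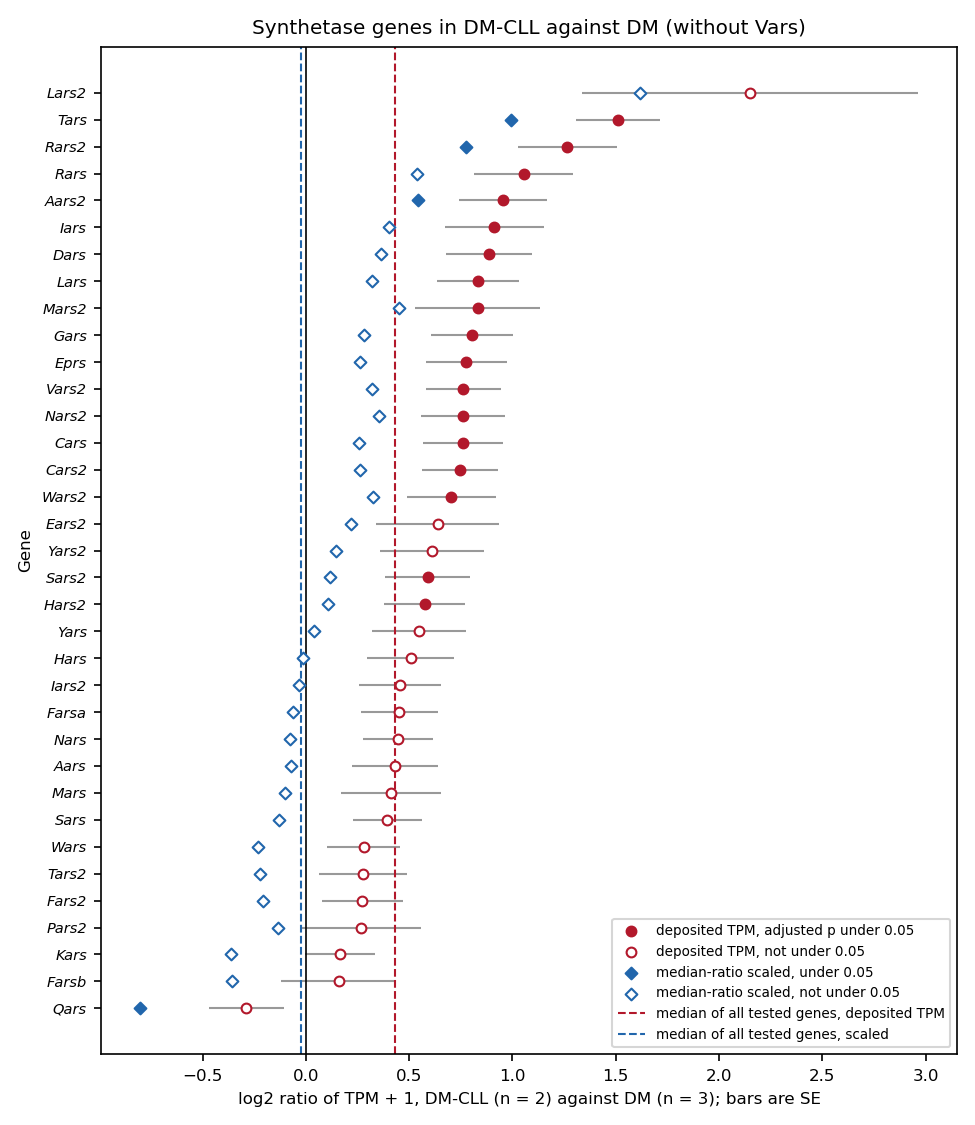
Log2 ratio of TPM + 1 in DM-CLL (n = 2) against DM (n = 3) for 35 members, without Vars, with SE bars, as deposited (red circles) and after median-ratio scaling (blue diamonds). Filled symbols passed an adjusted p of 0.05, and dashed lines mark the median of all tested genes, 0.43 and -0.03. Tars keeps the largest scaled ratio among the called genes (0.99), and Qars is the called gene below 0 (-0.80).

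Tars, the cytosolic threonine enzyme (chromosome 15, 11382301 to 11399665), had the smallest adjusted p of all members. It measured 26.8, 26.6 and 20.3 TPM in WT, 22.1, 17.4 and 21.6 in Sf3b1 MT and 21.6 to 34.5 in Atm MT (median 24.97). Tars in the double mutants measured 16.9, 18.7 and 23.4 TPM in DM and 58.6 and 56.3 in DM-CLL. The DM-CLL libraries both lay above all 15 others, the highest of which was Atm MT replicate 2. The group means were 19.7 ± 3.34 TPM in DM (SD, n = 3) and 57.5 ± 1.61 in DM-CLL (n = 2). Tars rose with a log2 ratio of 1.51 ± 0.20 (SE, limma adjusted p = 9.85e-05) against DM, and of 1.20 ± 0.20 (SE, limma adjusted p = 0.000907) against WT. After median-ratio scaling the ratio was 0.99 ± 0.19 (SE, limma adjusted p = 0.00285) against DM and 1.01 (limma adjusted p = 0.00253) against WT. It passed against DM and WT in each of the 10 alternatives and each of the 17 omissions of a library.

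Rars2, the mitochondrial arginine enzyme (chromosome 4, 34614957 to 34660167), was the other member called against DM under every alternative and omission run. It measured 12.6, 12.5 and 8.88 TPM in WT, 10.3, 6.26 and 6.88 in Sf3b1 MT and 9.16 to 15.2 in Atm MT (median 12.03). Rars2 in the double mutants measured 6.65, 6.46 and 8.53 TPM in DM and 21.03 and 16.5 in DM-CLL. Its DM-CLL values both lay above all others. Rars2 rose with a log2 ratio of 1.27 ± 0.24 (SE, limma adjusted p = 0.00127) against DM, and 0.78 ± 0.21 (SE, limma adjusted p = 0.0191) after scaling. The ratio to WT was 0.69 ± 0.24 (SE, limma adjusted p = 0.0727) and did not pass.

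Aars2, the mitochondrial alanine enzyme (chromosome 17, 45506841 to 45520843), was a low gene that was called as deposited and after median-ratio scaling. It measured 3.80, 3.45 and 3.81 TPM in WT, 3.48, 3.29 and 3.61 in Sf3b1 MT and 2.64 to 4.36 in Atm MT (median 4.10). Aars2 in the double mutants measured 1.77, 2.21 and 2.92 TPM in DM and 6.07 and 4.66 in DM-CLL. Both values of DM-CLL lay above all others, and all DM libraries lay below all WT libraries. Aars2 rose with a log2 ratio of 0.95 ± 0.21 (SE, limma adjusted p = 0.00379) against DM, and 0.54 ± 0.18 (SE, limma adjusted p = 0.0465) after scaling. It missed the threshold without DM-CLL replicate 4 (adjusted p = 0.0567) and was kept in 7 of 10 alternatives. It was lost, with an adjusted p of up to 0.0749, among others when ribosomal protein and immunoglobulin genes were removed before rescaling and when only the groups compared were fitted. The ratio to WT was 0.43 ± 0.21 (SE, limma adjusted p = 0.207).

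Qars, the cytosolic glutamine enzyme (chromosome 9, 108507706 to 108515941), is described because it was the only member with a ratio below 0, and was chosen for that after its values were seen. It measured 32.4, 23.6 and 31.3 TPM in WT, 29.8, 35.6 and 30.97 in Sf3b1 MT and 21.9 to 28.3 in Atm MT (median 24.98). Qars in the double mutants measured 24.9, 28.6 and 21.4 TPM in DM and 21.8 and 18.5 in DM-CLL. Both DM-CLL libraries lay below all WT libraries, while DM replicate 6 lay between them. The ratio to DM was -0.29 ± 0.18 (SE, limma adjusted p = 0.232) and did not pass as deposited, and after scaling Qars fell, with -0.80 ± 0.19 (SE, limma adjusted p = 0.011). Against WT the ratio was -0.50 ± 0.18 (SE, limma adjusted p = 0.0836) as deposited and -0.69 (limma adjusted p = 0.0271) after scaling. Mitochondria have no glutamine enzyme of their own: Ears2 charges that tRNA with glutamate and an amidotransferase converts it.

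The multisynthetase complex holds 8 of the members, among them Qars. Of these 8, 5 rose in DM-CLL against DM (Dars, Eprs, Iars, Lars and Rars), with a median of 0.80, beside 4 of the 12 cytosolic members outside it, with a median of 0.48. Of all tested genes 29.2% rose, with a median of 0.43. After scaling none of the 8 rose, against 8.82% of all genes. The scaled medians were 0.29 and -0.04, beside -0.03 for all genes. The difference between these sets was not tested. Rars, the arginine enzyme, measured 33.04, 28.7 and 21.7 TPM in WT, 25.1, 20.1 and 22 in Sf3b1 MT and 22.4 to 36.9 in Atm MT (median 28.6). Rars in the double mutants measured 16.6, 20.5 and 26.6 TPM in DM and 50.8 and 38.8 in DM-CLL (log2 1.05 ± 0.24 SE, limma adjusted p = 0.0041). The DM-CLL libraries both lay above all others, and the highest DM library, replicate 6, lay within the range of WT. Iars, the isoleucine enzyme, measured 20.3, 21.9 and 16.8 TPM in WT, 14.2, 15.6 and 18.2 in Sf3b1 MT and 15.1 to 22.8 in Atm MT (median 18.3). Iars in the double mutants measured 11.4, 15.7 and 18.5 TPM in DM and 36.6 and 22.96 in DM-CLL (log2 0.91 ± 0.24 SE, limma adjusted p = 0.0103). DM-CLL replicate 5 only just exceeded Atm MT replicate 6. Dars, the aspartate enzyme, measured 55.9, 48.5 and 38.8 TPM in WT, 43.4, 30.5 and 31.9 in Sf3b1 MT and 36.2 to 55.1 in Atm MT (median 41.9). Dars in the double mutants measured 35.6, 33.4 and 29.99 TPM in DM and 68.8 and 55.5 in DM-CLL (log2 0.89 ± 0.21 SE, limma adjusted p = 0.00493). DM and DM-CLL did not overlap, but DM-CLL replicate 5 lay among the WT libraries. Eprs measured 25.4, 29.8 and 22.3 TPM in WT, 24.4, 16 and 20.9 in Sf3b1 MT and 20.99 to 29.4 in Atm MT (median 26.4). Eprs in the double mutants measured 17.6, 18.1 and 19.2 TPM in DM and 35.9 and 28.6 in DM-CLL (log2 0.78 ± 0.19 SE, limma adjusted p = 0.00759). Its DM-CLL values overlapped those of WT. Kars and Mars (methionine), the other members of the complex, had ratios of 0.17 and 0.41 and did not pass.

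Lars, the leucine enzyme of the same complex, and Gars, the glycine enzyme outside it, also passed against WT. Lars measured 18.7, 19.9 and 18.9 TPM in WT, 18.4, 15 and 19.1 in Sf3b1 MT and 18.02 to 31.1 in Atm MT (median 25.6). Lars in the double mutants measured 16.9, 16.2 and 17.4 TPM in DM and 32.3 and 29.2 in DM-CLL. Its DM-CLL values both lay above WT and DM, but Atm MT replicate 6 lay between them. Lars rose with a log2 ratio of 0.83 ± 0.20 (SE, limma adjusted p = 0.00574) against DM and 0.65 ± 0.20 (SE, limma adjusted p = 0.0397) against WT. After scaling the ratio to DM did not pass (0.32 ± 0.14 SE, limma adjusted p = 0.123), while that to WT did (0.46, adjusted p = 0.0373). The call against WT was kept in 5 of 10 alternatives and lost in the others, among them both other rescalings (adjusted p up to 0.414 over the alternatives). It was kept in 9 of 17 omissions and lost without any 1 of the WT or DM-CLL libraries, Sf3b1 MT replicate 1, Atm MT replicate 4 or DM replicate 1. Gars measured 39.1, 37.5 and 35.4 TPM in WT, 36.2, 37.3 and 34.1 in Sf3b1 MT and 32.2 to 46.3 in Atm MT (median 34.3). Gars in the double mutants measured 27.7, 38.8 and 33.1 TPM in DM and 72.8 and 46.5 in DM-CLL. Both values of DM-CLL lay above all others, though replicate 5 only just exceeded Atm MT replicate 2. Gars rose with a log2 ratio of 0.80 ± 0.20 (SE, limma adjusted p = 0.00712) against DM and 0.63 ± 0.20 (SE, limma adjusted p = 0.0468) against WT, and neither passed after scaling or without DM-CLL replicate 4. The call of Gars against WT was kept in 3 of 10 alternatives and 4 of 17 omissions. The remaining cytosolic riser, Cars (cysteine), measured 13.1, 13.6 and 12.5 TPM in WT, 11.3, 11.7 and 12.7 in Sf3b1 MT and 11.5 to 15.6 in Atm MT (median 13.6). Cars in the double mutants measured 8.88, 13.4 and 12.1 TPM in DM and 24.02 and 16.3 in DM-CLL (log2 0.76 ± 0.20 SE, limma adjusted p = 0.0088).

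The mitochondrial members were led by Rars2 and Aars2, and the other 7 that rose did so by 0.57 to 0.83. Cars2 (cysteine) measured 11.04, 9.65 and 8.88 TPM in WT, 7.43, 8.36 and 7.10 in Sf3b1 MT and 7.33 to 11.7 in Atm MT (median 9.80). Cars2 in the double mutants measured 7.09, 7.29 and 8.25 TPM in DM and 14 and 12.7 in DM-CLL (log2 0.75 ± 0.18 SE, limma adjusted p = 0.00685). Both DM-CLL libraries were the highest of all. Nars2 (asparagine) measured 2.87, 2.95 and 2.64 TPM in WT, 2.44, 2.69 and 2.60 in Sf3b1 MT and 2.50 to 4.14 in Atm MT (median 3.17). Nars2 in the double mutants measured 1.96, 2.19 and 3.04 TPM in DM and 5.24 and 4.22 in DM-CLL (log2 0.76 ± 0.20 SE, limma adjusted p = 0.0108). DM-CLL replicate 5 only just exceeded Atm MT replicate 6. Mars2 (methionine) measured 2.84, 3.51 and 3.59 TPM in WT, 2.84, 2.41 and 2.59 in Sf3b1 MT and 2.99 to 6.95 in Atm MT (median 3.25). Mars2 in the double mutants measured 1.58, 1.37 and 3.09 TPM in DM and 3.08 and 5.64 in DM-CLL (log2 0.83 ± 0.30 SE, limma adjusted p = 0.0457). Its DM-CLL replicate 4 lay at the level of DM replicate 6, so these groups overlapped, and the call was kept in 4 of 10 alternatives and 5 of 17 omissions. Hars2 (histidine) measured 7.96, 7.21 and 6.37 TPM in WT, 6.03, 6.26 and 6.61 in Sf3b1 MT and 7.19 to 10.3 in Atm MT (median 8.44). Hars2 in the double mutants measured 4.75, 4.86 and 7.56 TPM in DM and 8.90 and 8.78 in DM-CLL (log2 0.57 ± 0.20 SE, limma adjusted p = 0.0366). Atm MT reached above both DM-CLL libraries, and the call was kept in 4 of 10 alternatives and 13 of 17 omissions. Sars2 (serine) measured 8.62, 5.44 and 6.32 TPM in WT, 7.04, 7.69 and 6.39 in Sf3b1 MT and 6.68 to 8.96 in Atm MT (median 7.21). Sars2 in the double mutants measured 5.14, 7.24 and 5.20 TPM in DM and 10.4 and 8.12 in DM-CLL (log2 0.59 ± 0.20 SE, limma adjusted p = 0.0381). DM-CLL replicate 5 lay below WT replicate 1, and the call was kept in 2 of 10 alternatives and 14 of 17 omissions. Vars2 and Wars2, which were low in DM, rose with log2 ratios of 0.76 ± 0.18 (SE, limma adjusted p = 0.0055) and 0.70 ± 0.22 (SE, limma adjusted p = 0.022), and stood at 0.32 and 0.33 after scaling, not passing. The call of Wars2 was kept in 14 of 17 omissions.

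The 16 members not given singly above, or given only for their level, did not pass in any comparison. Of these, 10 are cytosolic (Aars, Farsa, Farsb, Hars, Kars, Mars, Nars, Sars, Wars, Yars) and the rest mitochondrial (Ears2, Fars2, Iars2, Pars2, Tars2, Yars2). Their ratios in DM-CLL against DM ran from 0.16 for Farsb to 0.64 for Ears2. Farsa and Farsb encode the 2 subunits of the phenylalanine enzyme and had unlike values in DM-CLL. Farsa measured 35.2 and 26.7 TPM in DM-CLL replicates 4 and 5, and Farsb 40.5 and 15.5, with 23.1, 22.6 and 21.6 in DM. Farsb thus held both the highest and the lowest value of all 17 libraries within this pair.

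The leukaemic libraries were not alike. DM-CLL replicate 4 lay above replicate 5 for 34 of 36 members, with a median difference of 0.32 on the log2 scale, beside 0.12 for all genes, and for 28 of 36 after scaling. The exceptions as deposited were Lars2 and Mars2. The median log2(TPM + 1) of the cytosolic members was 5.31 in replicate 4 and 4.90 in replicate 5, against 4.22 to 4.83 in the other 15 libraries. For the mitochondrial members it was 3.41 and 3.0, against 2.31 to 3.04, so replicate 5 lay within the range of the others. After scaling, replicate 5 lay within the range of the other groups in both sets. Replicate 4 is the library with the high erythroid and T-cell sums given above, and its proliferation markers also summed to more (747 TPM, against 345 in replicate 5 and 268 to 729 in DM). The part of those cells in the synthetase levels was not tested. Most member calls against DM were lost without replicate 4. The median log2 ratio of all genes to DM was 0.34 without replicate 4 and 0.54 without replicate 5, beside 0.43 with both.

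**Figure D4:**
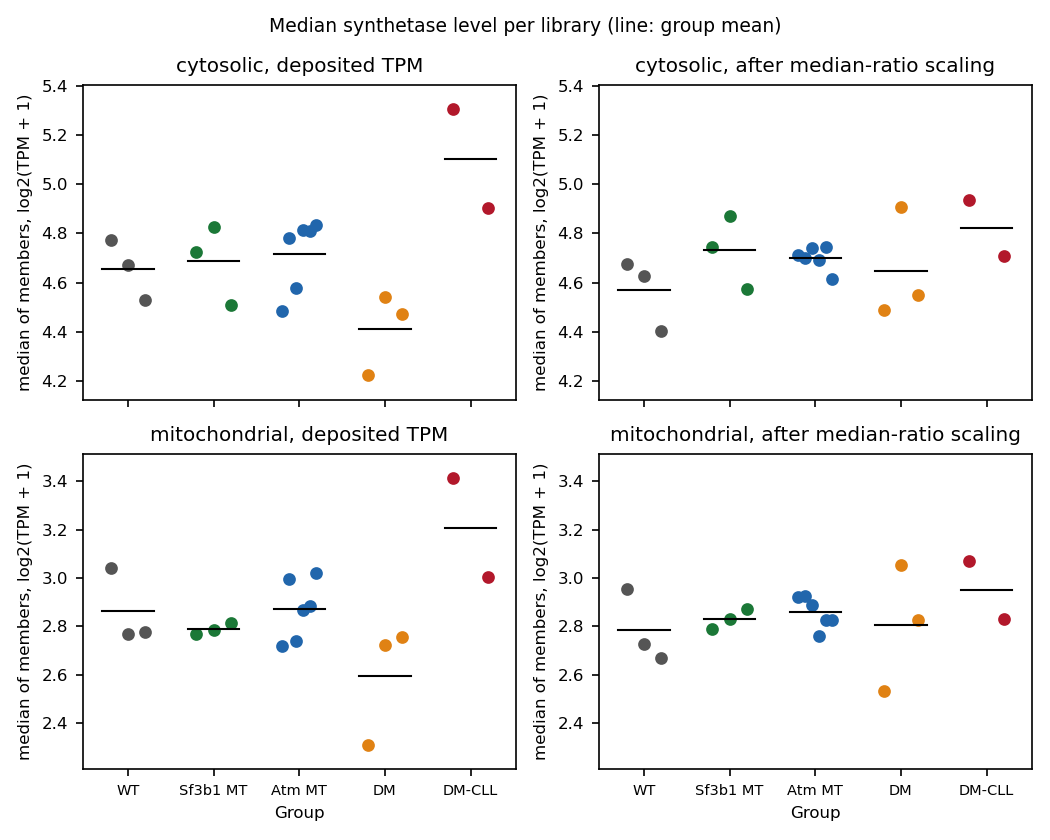
Median log2(TPM + 1) of the 20 cytosolic (top) and 16 mitochondrial members (bottom) in each library, as deposited (left) and after median-ratio scaling (right), with 1 point per library and a line at the group mean. As deposited, DM lies lowest and DM-CLL highest, and after scaling DM is no longer lowest and DM-CLL replicate 5 lies within the range of the other libraries.

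Against WT fewer members passed than against DM. In DM-CLL against WT, 3 members rose (Gars, Lars and Tars) and none fell, against 10.3% of all genes that rose and 2.81% that fell. The median of the members was 0.41, beside 0.19 for all genes, and after scaling 0.22, beside 0.02. Both DM-CLL libraries were above all WT libraries for 21 members, against 32.2% of all genes, and below them for 1, Qars, against 11.7%. Over all genes the split of calls was 1021 higher and 278 lower as deposited and 759 and 577 after scaling, and among members 2 higher (Lars and Tars) and 1 lower (Qars). None of the 16 mitochondrial members passed against WT.

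The ratios of all genes also differed between chromosomes. After scaling, the 396 tested genes of chromosome 15 had a median log2 ratio of 0.52 in DM-CLL against DM (0.56 and 0.54 for replicates 4 and 5), and the 520 of chromosome 17 a median of 0.25. The other 17 autosomes lay between -0.13 and 0.06. Tars is the only member on chromosome 15, and its scaled ratio of 0.99 lay above that chromosome's median. Vars, Aars2 and Vars2 lie on chromosome 17, with scaled ratios of 5.32, 0.54 and 0.32. Rars2 lies on chromosome 4 (median -0.09) and Qars on chromosome 9 (median -0.01). Of the 5 members called after scaling, Tars, Vars and Aars2 lie on chromosomes 15 and 17, and Rars2 and Qars do not. Vars2, also on chromosome 17, was not called (limma adjusted p = 0.166). The share of all called genes that lie on these chromosomes was not counted. No DNA was measured, and the part of the chromosome in these results was not tested.

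**Figure D5:**
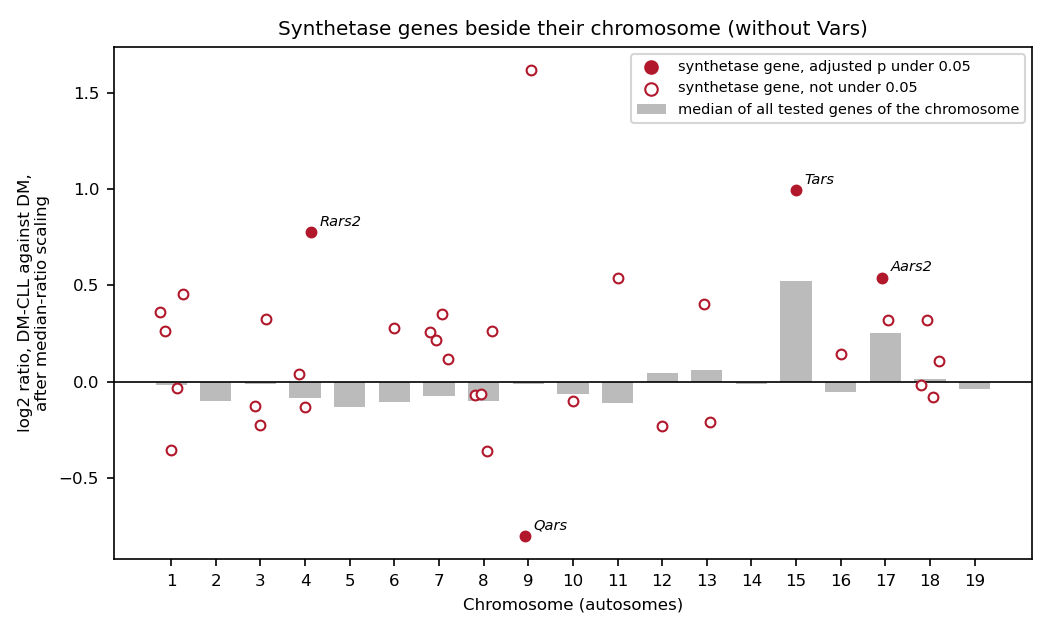
Log2 ratio in DM-CLL against DM after median-ratio scaling by autosome. Grey bars are the median of all tested genes of a chromosome, and points are the 35 members without Vars, filled where the adjusted p was under 0.05. The bars of chromosomes 15 and 17 stand above the rest at 0.52 and 0.25, and Tars lies above the bar of chromosome 15.

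Known regulators of these genes were read beside them. Myc measured 22.9, 17.2 and 8.51 TPM in WT and 13.02, 12.1 and 18.2 in Sf3b1 MT. It measured 16.98, 5.85 and 14.3 TPM in DM and 46.5 and 38.2 in DM-CLL. Both DM-CLL libraries lay above all others. Myc rose against DM with a log2 ratio of 1.80 ± 0.38 (SE, limma adjusted p = 0.00242) (1.30, adjusted p = 0.0278 after scaling) and against WT with 1.43 ± 0.38 (SE, limma adjusted p = 0.0183). It lies on chromosome 15, as does Atf4. Atf4 measured 318, 154 and 174 TPM in DM and 331 and 403 in DM-CLL. It rose with a log2 ratio of 0.84 ± 0.26 (SE, limma adjusted p = 0.0221), but not after scaling (0.30, adjusted p = 0.485). DM replicate 1 was close to DM-CLL replicate 4. Asns, which makes asparagine and is a classic ATF4 target, measured 11.8, 37.1 and 10.9 TPM in DM and 17.5 and 1.22 in DM-CLL. DM-CLL replicate 5 held the lowest value of all 17 libraries and DM replicate 3 the highest. Asns rose in DM against Atm MT with a log2 ratio of 1.48 ± 0.39 (SE, limma adjusted p = 0.0418), a comparison in which no synthetase gene rose. It was the only 1 called of 20 ATF4 and amino-acid response genes tested. In that comparison the amino-acid transporter Slc43a1 and the heavy chain of amino-acid carriers Slc3a2 also rose (Slc3a2 log2 0.74 ± 0.18 SE, limma adjusted p = 0.0348). They were the only 2 called of 17 transporters tested, whose median was -0.27, beside -0.21 for all genes. Over all genes 152 rose and 447 fell there, but 3 and 4 without DM replicate 1, and 7 and 2 without DM replicate 3. Mxd1, of the Myc and mTORC1 list, rose too, while Dus3l, which makes dihydrouridine in tRNA, fell (log2 -0.55 ± 0.15 SE, limma adjusted p = 0.0474). Mxd1 was the only 1 called of 15 genes of its list, and Dus3l the only 1 of 30 tRNA modification genes. Of all genes 1.54% rose and 4.52% fell. After scaling Dus3l was not called, while Asns, Slc43a1, Slc3a2 and Mxd1 were.

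Other ATF4 and amino-acid response genes did not move together in DM-CLL against DM. Of 20 tested, 5 rose and 2 fell, with a median of 0.24, and after scaling none rose and 2 fell, with a median of -0.15. Phgdh, which starts serine synthesis, rose (63.2 ± 8.69 TPM in DM, 137 ± 47.4 in DM-CLL; log2 1.07 ± 0.30 SE, limma adjusted p = 0.0142). Cebpg, a partner of ATF4, rose with 1.03 ± 0.32 (SE, limma adjusted p = 0.0238). Pycr1, which makes proline, fell from 6.82, 9.09 and 8.27 TPM in DM to 1.65 and 1.10 in DM-CLL (log2 -1.93 ± 0.36 SE, limma adjusted p = 0.00111). Chac1, which degrades glutathione, fell too, with -1.76 ± 0.42 (SE, limma adjusted p = 0.00568). The DM-CLL libraries both lay below all DM libraries for Pycr1, and both falls were also called after scaling. Of 17 amino-acid transporters tested, 6 rose and 1 fell, and 5 rose and 2 fell after scaling. Slc38a2, a carrier of small neutral amino acids, rose from 34.5 ± 10.2 to 132 ± 25.9 TPM (log2 1.94 ± 0.28 SE, limma adjusted p = 0.000168). Slc7a7, a subunit that exports cationic amino acids, rose with 2.45 ± 0.49 (SE, limma adjusted p = 0.00175). Slc36a4, Slc38a9 and Slc7a7 were also called after scaling, as was Slc38a2.

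The rest of the tRNA and translation machinery rose in part. Of the 3 scaffolds of the multisynthetase complex, Aimp2 (log2 0.86 ± 0.30 SE, limma adjusted p = 0.0382) and Aimp1 (log2 0.53 ± 0.19 SE, limma adjusted p = 0.0468) rose, and neither did after scaling. Among 12 charging partners and proofreading enzymes, 7 rose and none fell (median 0.74), and after scaling 1 rose and 2 fell. Gatc, a subunit of the amidotransferase that completes mitochondrial glutamine tRNA, rose with 1.24 ± 0.24 (SE, limma adjusted p = 0.00145) and was the one that rose after scaling. Among 19 tRNA processing and export genes, 12 rose and none fell (median 0.70), and after scaling 1 rose and 1 fell. Trnt1, which adds the CCA end that is charged by synthetases, measured 13.1, 10.3 and 14.6 TPM in DM and 42.2 and 43.3 in DM-CLL. It rose with 1.69 ± 0.33 (SE, limma adjusted p = 0.00136), also after scaling (1.18, adjusted p = 0.0191). Its DM-CLL values both lay above all others. Of 30 tRNA modification genes, 13 rose and none fell (median 0.57), and after scaling 2 rose and 2 fell. Pus7, a pseudouridine synthase, rose with 1.23 ± 0.19 (SE, limma adjusted p = 0.000307) and also after scaling. Of 15 genes of eIF2 and its kinases 6 rose (median 0.62), and Eif2s1, the subunit that the kinases phosphorylate, rose after scaling too (0.83, adjusted p = 0.0207). Of 10 elongation factors only Eef1d rose (median 0.39), and after scaling 2 fell. Of 57 mitochondrial ribosomal proteins 23 rose and none fell (median 0.57), and after scaling 1 rose and 2 fell. Of 15 genes of Myc and mTORC1 4 rose, and of 15 proliferation markers none did. These counts are descriptions, to be read beside the 29.2% and 8.82% of all genes that rose before and after scaling.

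Reads of some members could be shared with other genes, since the counting and its use of strand are not stated. Of the 31-base words of its transcripts, Iars2 shared 31.6% with Rab3gap2 or other genes, most with Rab3gap2 on the opposite strand. The shares were 20.3% for Aars (most with Exosc6, same strand), 19.4% for Cars2 (most with Naxd, opposite strand) and 17.2% for Iars (most with Gm4849, same strand). Farsb shared 9.45%, Hars 8.32%, Nars2 6.17%, Cars 5.36%, Hars2 5.16% and Vars2 4.89%, with Hars and Hars2 overlapping on opposite strands. These shares describe the transcripts and set no bound on the reads given to the wrong gene. Vars shared 0.975% and Lars2 0.928%. Only exact words were searched, so near matches were not counted. A low share therefore does not show that a level is free of other reads.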

How the data were processed

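Poly(A) RNA of B cells was sequenced in 17 libraries, which were grouped by genotype and leukaemia from the labels. The authors deposited 1 table of TPM, a length-corrected share of transcripts, per gene symbol and library. STAR and the mm10 build are named per the submitters' processing notes, and their versions, the tool that computed the TPM and the annotation are not given in the sources used here. Counts were not used, so the depth and the counting error are unknown. No column was left without a sample.

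From the deposited TPM, log2(TPM + 1) was computed for the 9898 genes with at least 1 TPM in at least 2 libraries. It was tested with limma 3.58.1 (R 4.3.3, moderated with a mean trend, Benjamini-Hochberg adjustment over all 9898 genes, threshold 0.05). The comparisons without DM-CLL used the 15 libraries of the other groups, and those with DM-CLL used all 17. Members were matched to GENCODE M21 (36 of 36), and promoters came from RefSeq, GRCm38.p6. Tables were made in Python 3.11.15 with pandas 2.3.3, scipy 1.17.1 and numpy 2.4.6, and figures with matplotlib 3.10.9.

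Alternatives were a pseudocount of 0.1, no filter, median-ratio scaling (factors from 7769 genes), a common listed total, removal of 83 ribosomal protein and 2 immunoglobulin genes with rescaling, a block for the replicate number, weights per library, only the groups compared, leaving out Atm MT replicates 1 to 4, Xist as a covariate, and leaving out each library in turn. Same-numbered libraries did not deviate together. The members and lists were chosen with earlier results of these data known. A member is given by library where it passed in a comparison, had the largest or second largest ratio in one, or was among the most abundant. From the other lists some of the genes that passed are named, taken from the up to 4 with the largest ratios in each. Atf4, Asns and Myc are named in any case.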

Additional observations from a re-analysis of the deposited data

Results flagged for a closer look

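In the Atm MT group (n = 6), the values of each of the 36 members were examined for 1 library far from the other 5, by Dixon's test with a critical value of 0.625. It marked 4 of the 36 members. Chance would mark about 1 in 20 if members varied independently, but all were read in the same 6 libraries. The number marked is therefore no test of an excess. Gars at 46.31 TPM, Mars at 25.87 TPM and Tars at 34.48 TPM were high in Atm MT replicate 2. The proliferation markers of that library summed to 558 TPM, against 184 to 267 in the other 5 Atm MT libraries, and their part in these values was not tested. Mars2 at 6.95 TPM was high in Atm MT replicate 6.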

How the results depend on the processing

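Of the ratios of single members, the medians of the cytosolic and mitochondrial sets and the counts over all genes, 1352 values under an alternative kept their direction and call, 181 lost a call, 21 gained one, 104 medians or counts moved and 1 reversed: Lars2 in DM against Sf3b1 MT, 0.51 with all libraries, -0.25 without DM replicate 6 and 1.06 without DM replicate 3. The number of members called moved in 5 comparisons. In DM against WT (0) it was 14 with library weights (145 higher and 1788 lower over all genes) and 2 with the replicate block (80 and 1051). Over single omissions it was 0 to 1. In DM against Atm MT (2) it was 0 with no filter (51 higher and 117 lower over all genes), median-ratio scaling (275 and 111) or the common total (44 and 24). It was also 0 with the removed genes (127 and 96), only the groups compared (28 and 29), or without Atm MT replicates 1 to 4 (3 and 24). There it was 15 with weights (273 higher and 1900 lower over all genes), 4 with Xist (195 and 556) and 1 with the replicate block (221 and 530). Over omissions it was 0 to 4. In DM against Sf3b1 MT (0) it was 2 with weights (37 higher and 164 lower over all genes). In DM-CLL against DM (18) it was 5 with median-ratio scaling, 7 with the common total, 4 with the removed genes, 4 with the replicate block, 6 with only the groups compared, and 3 (without DM-CLL replicate 4) to 22 (without replicate 5) over omissions. Over all genes, DM-CLL against DM had 2889 higher and 195 lower calls as reported, and 873 and 749 with median-ratio scaling. The calls were 1212 and 292 with the common total and 830 and 586 with the removed genes. They were 1098 and 149 with the replicate block and 1508 and 136 with only the groups compared. Higher calls over all genes were thus also fewer under each of these alternatives. In DM-CLL against WT (3) the number of members called was 1 with weights (765 higher and 180 lower over all genes), the replicate block (404 and 351) or only the groups compared (612 and 166). There it was 4 with no filter (1226 and 271) and 2 with Xist (1007 and 252, Gars lost). It was also 2 with the common total (748 and 352) or the removed genes (683 and 545), with Gars and Lars lost and Qars gained in both. It stayed at 3 with median-ratio scaling (759 and 577), where Gars was lost and Qars gained. Over all genes, the number called ran, over every alternative and omission, from 0 to 149 in Sf3b1 MT against WT (7 as reported), from 19 to 303 in Atm MT against WT (64 as reported), from 10 to 1933 in DM against WT (221 as reported), from 7 to 2173 in DM against Atm MT (599 as reported), from 0 to 201 in DM against Sf3b1 MT (12 as reported), from 0 to 5 in interaction of the lesions (0 as reported), from 1247 to 3345 in DM-CLL against DM (3084 as reported) and from 696 to 1497 in DM-CLL against WT (1299 as reported). The cause of these moves was not tested, except that fewer libraries enter some fits. Same-numbered libraries had correlations of -0.363 to 0.364 and share only a number. Where an omission left 1 DM-CLL library, its spread was taken to equal that of the other groups. Depth is unknown, so no limit from it could be set.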
